A study of Mus musculus with 6 samples.

Results

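Oxidative phosphorylation is built by 2 genomes. The respiratory chain genes described here were taken by name from the 6 gene tables: the 13 rows beginning with mt-, and the rows beginning with Ndufa, Ndufb, Ndufc, Ndufs, Ndufv, Sdh, Uqcr, Atp5 or Cox4 to Cox8. The rule found 107 of 15639 rows, 13 encoded in mitochondrial DNA and 94 in the nucleus. Of the nuclear members, 74 encode common subunits, 5 encode isoforms restricted to certain cell types, 12 encode assembly factors that share a prefix (Ndufaf and Sdhaf) and 3 encode related proteins (Cox7a2l, Ndufa4l2 and Atp5s). Ndufa4 was placed with complex IV, to which its protein is now assigned, and Ndufa4l2 beside it. The mRNA came from the hippocampus of mice aged 6 months, in 3 libraries labelled WT, for wild type, and 3 labelled APP/PS1, for mice that express APP695swe and PS1-dE9. The promoters of the transgenes, the strain, the sex and any litter or batch are not stated in the labels, and nothing states that replicates are separate animals. The p-values below therefore reflect the spread among 6 libraries and no more, and that spread may be technical.

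As background, complexes I to IV pass electrons from NADH and succinate to oxygen. Of these, complexes I, III and IV also pump protons across the inner mitochondrial membrane. Complex V, the ATP synthase, uses the returning protons to make ATP. Mitochondrial DNA encodes the core membrane subunits of complexes I, III, IV and V, transcribed from both strands as long precursors that are cut into single messages, and only mt-Nd6 lies on the light strand. All of complex II and most subunits of the other complexes are nuclear genes, whose promoters are known to hold sites for the factors NRF1 and GABP. Neurons depend on the chain for synaptic transmission, and amyloid models are widely studied for mitochondrial changes.

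App and Prnp went against the labels in 1 library of each label, WT-labelled replicate 3 and APP/PS1-labelled replicate 2. App was at 69.8, 68.5 and 145.6 FPKM in WT-labelled replicates 1 to 3 and 153.1, 71.0 and 166.2 FPKM in APP/PS1-labelled replicates 1 to 3. Prnp was at 188.1, 181.5 and 457.2 FPKM against 471.6, 198.6 and 463.8 FPKM. In both genes these 2 libraries stood with those of the other label. The main counts, the sums of both genome origins and several single genes are therefore also given for 4 libraries, without those 2. FPKM divides the fragments of a gene by transcript length and by all mapped fragments. This allows only an approximate comparison of levels between genes, and each value depends on the rest of its library. Library totals lay between 182355 and 185217 FPKM, and how many reads stand behind them is unknown. Neuronal markers (10 genes) summed to between 905.9 and 951.0 FPKM in the 6 libraries. The fit covered 13700 genes with every member but Cox4i2, which lay under the filter of at least 1 FPKM in at least 3 libraries.

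Promoter windows of the nuclear members were read from RefSeq (GRCm38.p6) as the 250 bases before the annotated start, and 77 of the 94 members were matched by symbol, with 82 windows. Sites were searched on both strands as GCGCA, any base and GCGC in a row for NRF1 and CCGGAAG for GABP, and overlapping matches would be counted separately. The NRF1 letters stood in 15 of the 82 windows (18.3%), against 3.74% of all 32851 windows in the table and 5.18% of 21262 windows of protein-coding genes. The GABP letters stood in 16 windows (19.5%), against 6.91% and 8.98%. Both motifs contain CG. The median number of CG dinucleotides was 14.5 in the member windows, 10 in windows of protein-coding genes and 6 in all windows. The part of base composition in these shares was not tested. A match is a description of the letters and not a bound site. The 4 windows below are shown for the range they cover: Sdha has 3 NRF1 matches, Cox6a1 has 2 NRF1 and 1 GABP match, and the isoform pair Cox8a and Cox8b has none, while holding 11 and 1 CG dinucleotides. The windows lie on the minus strand at chr13:74350241-74350490, chr5:115348959-115349208, chr19:7217617-7217866 and chr7:140900447-140900696, in the order printed. Capitals mark the motif matches.
Sdha: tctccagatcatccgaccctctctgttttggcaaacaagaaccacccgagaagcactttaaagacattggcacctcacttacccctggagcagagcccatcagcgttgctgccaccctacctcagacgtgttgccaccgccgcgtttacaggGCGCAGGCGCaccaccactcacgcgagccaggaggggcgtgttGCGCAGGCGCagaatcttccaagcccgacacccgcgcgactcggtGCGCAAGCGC
Cox6a1: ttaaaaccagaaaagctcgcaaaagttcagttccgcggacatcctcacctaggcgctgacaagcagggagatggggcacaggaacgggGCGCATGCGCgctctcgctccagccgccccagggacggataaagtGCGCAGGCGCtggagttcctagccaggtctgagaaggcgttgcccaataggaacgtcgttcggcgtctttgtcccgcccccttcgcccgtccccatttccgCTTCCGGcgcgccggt
Cox8a: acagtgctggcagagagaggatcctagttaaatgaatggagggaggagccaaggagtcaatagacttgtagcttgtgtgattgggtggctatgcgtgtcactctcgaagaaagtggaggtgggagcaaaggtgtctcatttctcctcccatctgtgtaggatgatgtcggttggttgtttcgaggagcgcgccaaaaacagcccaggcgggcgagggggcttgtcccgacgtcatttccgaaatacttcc
Cox8b: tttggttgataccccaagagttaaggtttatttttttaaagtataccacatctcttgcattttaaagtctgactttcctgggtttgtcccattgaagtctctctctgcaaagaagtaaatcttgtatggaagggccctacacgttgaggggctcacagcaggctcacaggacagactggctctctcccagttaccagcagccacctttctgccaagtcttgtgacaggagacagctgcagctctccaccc

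The mitochondrially encoded genes were among the most abundant messages of the hippocampus, 8 of the 13 standing among the 10 highest rows by mean FPKM and 12 among the 20 highest. mt-Co1, the catalytic subunit of complex IV, was the highest row at a mean of 3285 FPKM, and mt-Nd3, a small membrane subunit of complex I, was the lowest of the 13 at 390.0 FPKM. Their profile was alike in all libraries, with Pearson's r of log2 FPKM over the 13 genes between 0.974 and 0.995 over the 15 pairs of libraries, a description across genes that share their library. mt-Co1 took between 17.5% and 18.9% of the mitochondrial sum in each library and mt-Cytb, the cytochrome b of complex III, between 9.80% and 10.7%. mt-Nd6 was the least even in share, from 2.92% to 4.35%. The pairs mt-Atp8 with mt-Atp6 and mt-Nd4l with mt-Nd4 overlap in the genome, as do the ends of mt-Atp6 with mt-Co3 and of mt-Nd5 with mt-Nd6, which lie on opposite strands. Reads in these overlaps, and reads from nuclear copies of mitochondrial DNA, cannot be assigned with certainty, and whether strand was used in counting is not stated.

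By label, all 13 mitochondrially encoded genes had a higher mean under APP/PS1 (8 of 13 after quantile normalization), and 0 passed an adjusted p of 0.05 by limma. Of all genes tested, 49.6% had a positive and 50.4% a negative log2 fold change. The summed FPKM of the 13 genes was 17082, 16179 and 17096 in the WT-labelled replicates 1 to 3, and 19090.5, 17860 and 20934 in the APP/PS1-labelled replicates 1 to 3. The labels did not overlap, and replicate 3 of the APP/PS1 label was the highest of the 6 and replicate 2 the nearest to the WT-labelled libraries. The label means were 16786 ± 525.5 and 19295 ± 1547 FPKM (SD, n = 3 each), a difference of 14.9% or 0.20 on the log2 scale. With 4 libraries the log2 ratio of the sums was 0.27, and without the APP/PS1-labelled replicate 3 it was 0.14.

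The 94 nuclear members differed less. Their summed FPKM was 2999, 2991 and 2978 in the WT-labelled replicates and 3026, 3001 and 2884 in the APP/PS1-labelled replicates. The libraries overlapped, and only the APP/PS1-labelled replicate 3 stood apart, on the low side. The label means were 2989 ± 10.9 and 2970 ± 75.6 FPKM (SD, n = 3 each), a log2 ratio of -0.01, and of -0.02 with 4 libraries. The ratio of the mitochondrial to the nuclear sum was 5.70, 5.41 and 5.74 under the WT label and 6.31, 5.95 and 7.26 under the APP/PS1 label. It did not overlap between labels. The log2 ratio of its label means was 0.21, and it was 0.29 with 4 libraries, 0.13 without the APP/PS1-labelled replicate 3 and 0.04 after quantile normalization. Members were chosen with results of these data known, so no test of these sums is given.

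**Figure D1:**
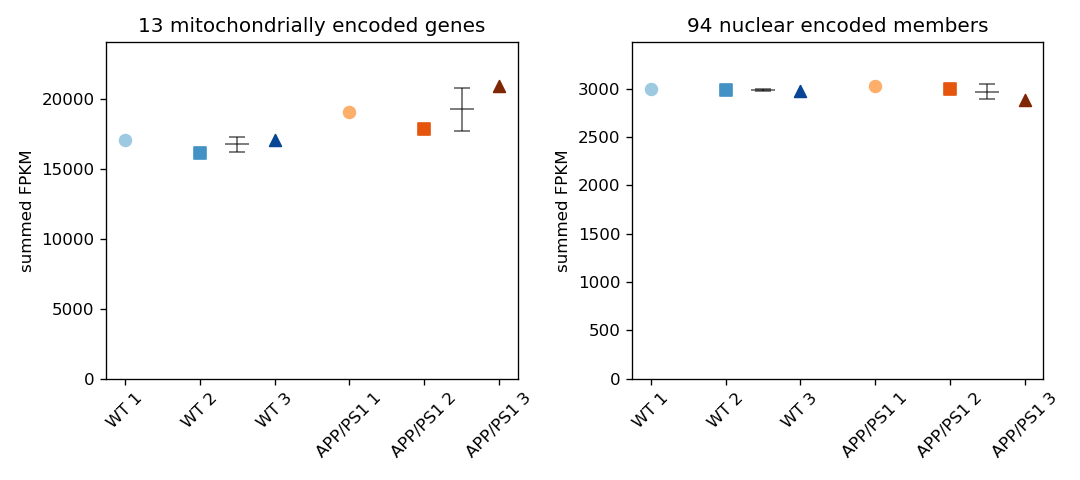
Summed FPKM (vertical axes from 0) of the 13 mitochondrially encoded genes (left) and the 94 nuclear encoded members (right) in each of the 6 libraries; points are libraries, and black bars beside them the mean ± SD of the 3 libraries of a label. The mitochondrial sums run from 16179 to 17096 under the WT label and from 17860 to 20934 under the APP/PS1 label, while the nuclear sums overlap.

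Median log2 fold changes (APP/PS1 minus WT, on the log2(FPKM + 1) scale) were 0.20 over the 13 mitochondrially encoded genes, -0.0050 over the 93 nuclear members tested and -0.00089 over all 13700 genes. Of the 13 genes, 8 had an unadjusted p under 0.05 and a higher mean in the APP/PS1 label, a side on which 2.85% of all genes tested had one. Libraries did not overlap between labels for 9 of the 13, all higher, where 5.38% of all genes were separated on that side. Past an adjusted p of 0.05 were 0 of the 13, and 1 higher (0.0073%) and 2 lower (0.0146%) of all genes, none of them a member. Adjusted p-values of the 13 by limma ran from 0.483 to 0.936. All 13 signs stayed positive in the 4 libraries, where 9 had an unadjusted p under 0.05 (4.2% of all genes on that side) and 0 passed, as 0.0803% of all genes did on the higher and 0.117% on the lower side. They also stayed positive after scaling to genes outside mitochondrial DNA and after TMM scaling, but quantile normalization left 8 of 13 positive with a median of 0.04.

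Among the 13 mitochondrially encoded genes, the highest log2 fold change was that of mt-Nd5, a proton-pumping membrane subunit of complex I. It was listed at 830.1, 792.8 and 831.4 FPKM under the WT label and at 1092, 877.8 and 1186 FPKM in replicates 1 to 3 of the APP/PS1 label. The labels did not overlap, and the APP/PS1-labelled replicate 2 was much nearer to the WT label than the other 2. Its log2 fold change was 0.35 ± 0.11 (SE; limma adjusted p = 0.639). Leaving out the APP/PS1-labelled replicate 2 gave a log2 fold change of 0.48 and an adjusted p of 0.0482, the only alternative in which a member passed, while the 4 libraries gave 0.49 and an adjusted p of 0.122, and adjusted p-values over its alternatives reached 1.00.

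Of the other complex I genes in mitochondrial DNA, mt-Nd4, which encodes another proton-pumping subunit, was at 1221, 1149 and 1194 FPKM against 1371, 1311 and 1544 FPKM. mt-Nd4l, a small subunit read from the same message, was at 925.7, 916.7 and 910.5 FPKM against 1034, 993.4 and 1136 FPKM. For both the labels did not overlap, with log2 fold changes of 0.24 ± 0.07 and 0.20 ± 0.06 (SE). mt-Nd2 was at 1351, 1314 and 1340 FPKM against 1370, 1367 and 1705 FPKM. It too was separated, though only the APP/PS1-labelled replicate 3 stood well above the WT-labelled libraries. mt-Nd1, the subunit next to the quinone site, was at 1748, 1816 and 1673 FPKM against 1702, 1742 and 2089 FPKM, so 2 of the 3 APP/PS1-labelled libraries lay within the WT range. Without the APP/PS1-labelled replicate 3 its log2 fold change went from 0.07 to -0.02. mt-Nd3 was at 400.1, 335.8 and 375.7 FPKM against 397.0, 385.1 and 446.4 FPKM, and overlapped.

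mt-Nd6, the gene on the light strand, was the exception to the common order of libraries. It was at 498.0, 562.4 and 743.3 FPKM under the WT label and 629.6, 599.8 and 698.8 FPKM under the APP/PS1 label. WT-labelled replicate 3 was its highest library, and WT-labelled replicate 1 its lowest. Its log2 fold change of 0.11 ± 0.15 (SE) changed sign to -0.01 without WT-labelled replicate 1 and to -0.09 under quantile normalization. The latter was not particular to mt-Nd6. Under quantile normalization the values of mt-Nd1 (-0.0865), mt-Nd4l (-0.0809), mt-Co3 (-0.0215) and mt-Nd2 (-0.0155) were negative too. In the other 12 genes the APP/PS1-labelled replicate 3 was the highest library, and WT-labelled replicate 2 was the lowest for 9 of the 13.

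mt-Cytb, the single mitochondrially encoded subunit of complex III, had the smallest p of the members. It was at 1674, 1688 and 1727 FPKM under the WT label and 2044, 1878 and 2142 FPKM under the APP/PS1 label. The 3 WT-labelled values lay close together and all APP/PS1-labelled values above them. Its log2 fold change was 0.25 ± 0.06 (SE; limma adjusted p = 0.483, and 0.240 in the 4 libraries, where the log2 fold change was 0.32).

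Of the 3 catalytic-core subunits of complex IV, mt-Co1 was at 3099, 2838 and 3158 FPKM against 3610, 3226 and 3779 FPKM. mt-Co2, which takes electrons from cytochrome c, was at 1211, 1126 and 1157 FPKM against 1338, 1293 and 1421 FPKM. Both were separated by label, with log2 fold changes of 0.22 ± 0.07 and 0.21 ± 0.05 (SE), and of 0.32 and 0.24 in the 4 libraries. mt-Co3 was at 1286, 1099 and 1181 FPKM against 1278, 1188 and 1397 FPKM and overlapped, with WT-labelled replicate 1 above 2 of the APP/PS1-labelled libraries.

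The ATP synthase genes of mitochondrial DNA were both separated by label. mt-Atp6, the proton-channel subunit, was at 1629, 1545 and 1602 FPKM against 1794, 1729 and 1887 FPKM. mt-Atp8, a small subunit of the peripheral part whose frame overlaps that of mt-Atp6, was at 1209, 997.7 and 1202 FPKM against 1430, 1272 and 1502 FPKM. WT-labelled replicate 2 was low for mt-Atp8, and the log2 fold changes were 0.18 ± 0.05 for mt-Atp6 and 0.30 ± 0.09 for mt-Atp8 (SE), and 0.21 and 0.42 in the 4 libraries.

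Along the mitochondrial genome, the difference between labels was not even. The median log2 fold change was 0.18 over the first 7 heavy-strand genes, mt-Nd1 to mt-Co3, and 0.24 over the last 5, mt-Nd3 to mt-Cytb. Both stretches held low and high values, with mt-Nd1 at 0.07 and mt-Atp8 at 0.30 in the first, and mt-Nd3 at 0.14 and mt-Nd5 at 0.35 in the second. Across the 12 heavy-strand genes, Spearman's rho of gene order with the log2 fold change was 0.55, a description across genes that share their libraries and their precursor. Set against the WT-labelled mean, rho was 0.51, 0.36 and 0.30 in the single APP/PS1-labelled replicates 1 to 3, and -0.035, 0.01 and 0.26 in the WT-labelled replicates 1 to 3.

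**Figure D2:**
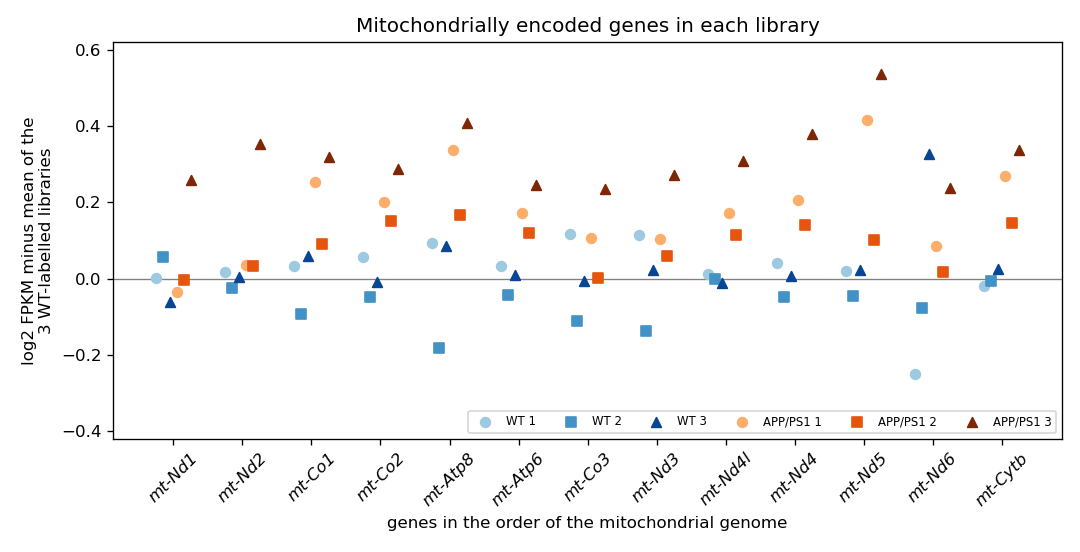
Level of each mitochondrially encoded gene in each library, as log2 FPKM minus the mean of the 3 WT-labelled libraries (vertical axis), with the genes in genome order (horizontal axis); each point is 1 library. The APP/PS1-labelled replicate 3 is the highest point for 12 genes and WT-labelled replicate 3 for mt-Nd6; quantile normalization, not drawn, leaves 8 of the 13 differences between labels positive.

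Within each complex that both genomes build, the ratio of mitochondrially to nuclear encoded FPKM was higher in every APP/PS1-labelled than in every WT-labelled library. In complex I it was 6.88, 6.68 and 6.78 under the WT label and 7.31, 7.16 and 8.93 under the APP/PS1 label. In complex III it was 5.23, 5.16 and 5.29 against 6.16, 5.78 and 6.98. In complex IV it was 6.05, 5.66 and 6.31 against 6.81, 6.35 and 7.70, where WT-labelled replicate 3 and APP/PS1-labelled replicate 2 nearly met. In complex V it was 4.79, 4.32 and 4.81 against 5.51, 4.94 and 5.72. The log2 ratios of the label means were 0.20, 0.27, 0.21 and 0.22. Levels were also averaged per common subunit under the WT label. In complexes I and III a mitochondrially encoded gene stood 36.6-fold and 41.8-fold above a nuclear one. In complexes IV and V it stood 23.7-fold and 35.1-fold above. These folds are approximate, since reads in overlapping genes and reads from nuclear copies of mitochondrial DNA cannot be assigned with certainty.

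**Figure D3:**
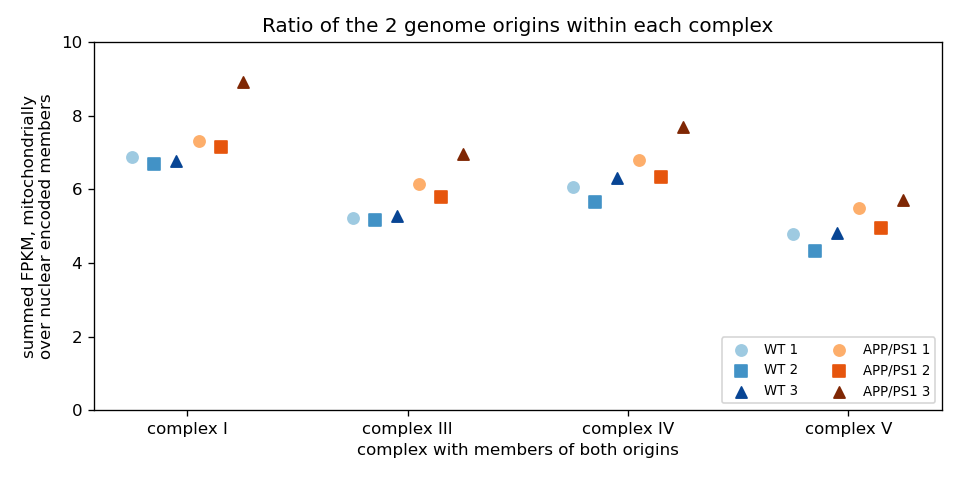
Ratio of the summed FPKM of mitochondrially to nuclear encoded members (vertical axis from 0) for the 4 complexes that hold both, with 1 point per library. In each complex the 3 APP/PS1-labelled points lie above the 3 WT-labelled points, by the least in complex IV (6.35 against 6.31).

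Among the nuclear members tested, 43 had a positive and 50 a negative log2 fold change, and 0 passed an adjusted p of 0.05 by limma (smallest adjusted p 0.623). An unadjusted p under 0.05 was found for 2 on the higher side (Sdhaf1 and Cox7a2l) and 2 on the lower side (Ndufv3 and Cox8b) of 93, where the background of all genes was 2.85% and 3.83%. Libraries did not overlap for 2 higher and 7 lower members, against 5.38% and 6.51% of all genes. In the 4 libraries the signs were 39 positive and 54 negative, with 2 of each side at an unadjusted p under 0.05 (4.2% and 4.98% of all genes) and 0 past the threshold. The signs are sensitive to scaling, since scaling to genes outside mitochondrial DNA gave 47 positive and 46 negative.

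**Figure D4:**
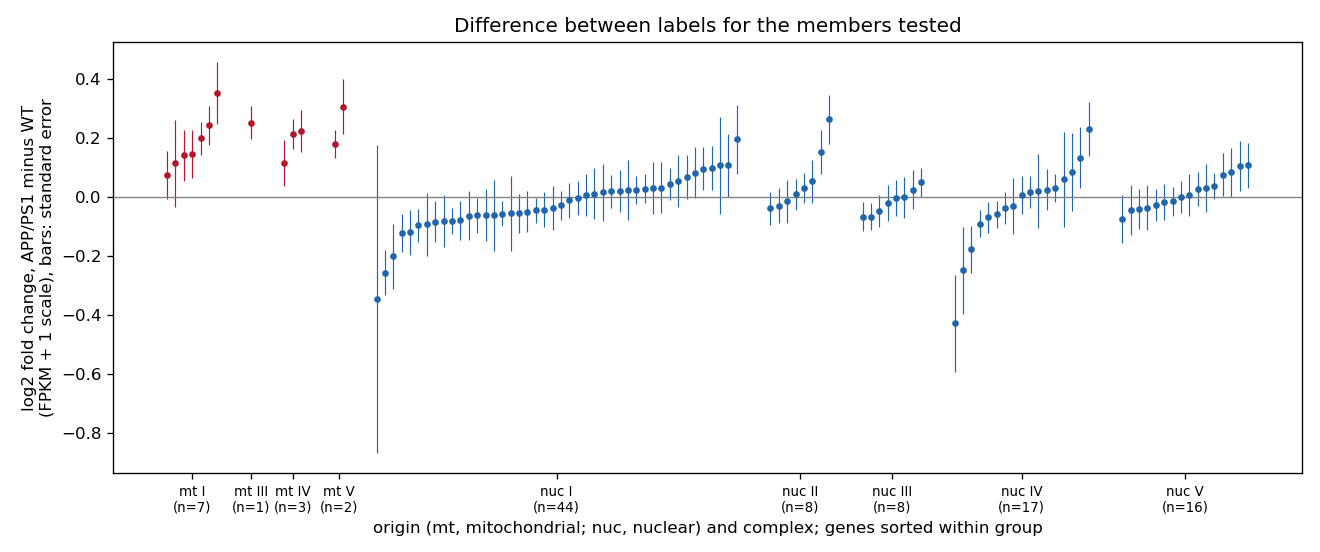
Log2 fold change (APP/PS1 minus WT, log2(FPKM + 1) scale, vertical axis) of the members tested, grouped by genome origin and complex and sorted within a group; bars are the standard error from limma. The 13 mitochondrially encoded genes (red) lie above 0, from 0.07 to 0.35, with 8 of them above 0 under quantile normalization, and the nuclear members (blue) lie on both sides.

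Complex I had 44 nuclear members, 19 positive and 25 negative, with a median log2 fold change of -0.03. All 5 of its members that were separated by label were lower in the APP/PS1 label: Ndufv3, Ndufs7, Ndufb4, Ndufb9 and Ndufb11. Over all genes tested, 6.51% were separated on the lower and 5.38% on the higher side. Ndufv3, a small subunit of the NADH-oxidizing arm, was at 10.2, 10.7 and 11.5 FPKM under the WT label and 8.52, 8.28 and 9.73 FPKM under the APP/PS1 label, a log2 fold change of -0.26 ± 0.08 (SE; limma adjusted p = 0.623, and -0.17 in the 4 libraries). Ndufs7, which holds the iron-sulfur cluster next to ubiquinone, was at 24.4, 22.5 and 22.0 FPKM against 21.8, 21.8 and 20.6 FPKM, values that almost touch. The 7 nuclear core subunits, which carry the flavin and iron-sulfur clusters, summed to 166.6, 170.3 and 174.5 FPKM against 160.9, 165.4 and 161.5 FPKM, while the 29 accessory subunits overlapped. Within the core, Ndufv2 was at 29.8, 33.6 and 37.6 FPKM against 28.1, 26.1 and 33.3 FPKM. Ndufa12, on the higher side, was at 22.6, 21.0 and 24.9 FPKM against 25.5, 22.7 and 31.2 FPKM and overlapped. By level, Ndufb9 was the highest nuclear subunit of complex I (mean 67.2 FPKM) and Ndufab1, the acyl carrier protein, the lowest (mean 4.23 FPKM).

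Complex II, made by the nucleus alone, differed little. Sdha, the flavoprotein, was at 61.4, 62.4 and 64.8 FPKM under the WT label and 64.0, 62.5 and 57.1 FPKM under the APP/PS1 label. Sdhb, the iron-sulfur subunit, had means of 25.2 ± 1.13 and 25.3 ± 0.718 FPKM (SD, n = 3 each), and the membrane anchors Sdhc and Sdhd had 13.05 ± 0.150 against 13.3 ± 0.472 and 30.8 ± 1.24 against 30.5 ± 2.77 FPKM. For all 4 the labels overlapped. Of its 4 assembly factors, Sdhaf1, which helps place iron-sulfur clusters into Sdhb, was at 2.06, 2.40 and 2.01 FPKM against 2.98, 2.74 and 2.62 FPKM. Sdhaf3, another factor for the same subunit, was at 1.68, 1.78 and 1.69 FPKM against 1.90, 1.97 and 2.18 FPKM. Both were separated, with log2 fold changes of 0.26 ± 0.08 and 0.15 ± 0.07 (SE; limma adjusted p = 0.642 and 0.797), and of 0.24 and 0.16 in the 4 libraries. Both are low genes, whose change the log2(FPKM + 1) scale understates.

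The nuclear side of complex III differed little. Its 8 nuclear subunits ranged in mean level from Uqcrq at 20.3 FPKM to Uqcr10 at 56.8 FPKM, and their log2 fold changes ran from -0.07 to 0.05, with 0 separated by label. Uqcrfs1, the Rieske iron-sulfur protein, was at 43.7, 42.2 and 42.5 FPKM against 42.3, 40.8 and 39.4 FPKM. Uqcrc2, a core protein, was at 44.9, 42.1 and 45.7 FPKM against 46.6, 46.2 and 44.6 FPKM. The nuclear subunits summed to between 320.1 and 326.8 FPKM under the WT label and between 307.1 and 332.1 FPKM under the APP/PS1 label, whereas mt-Cytb of the same complex was separated.

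In complex IV, Cox8a was the highest nuclear member of all, at 264.8, 248.5 and 254.0 FPKM under the WT label and 246.8, 251.3 and 237.8 FPKM under the APP/PS1 label. Cox6a1 was at 132.5, 129.8 and 123.3 FPKM against 124.1, 119.0 and 118.4 FPKM, overlapping by 1 library. Cox6c, the lowest common subunit, had a mean of 20.6 FPKM. Cox7a2l, a factor that joins complexes III and IV into supercomplexes, was at 52.4, 51.5 and 57.4 FPKM against 67.3, 54.6 and 68.2 FPKM. The APP/PS1-labelled replicates 1 and 3 were high for it and replicate 2 lay in the WT range, so that its log2 fold change was 0.23 ± 0.09 (SE; limma adjusted p = 0.740) with all libraries and 0.38 in the 4 (adjusted p = 0.132). Cox4i1 had 70.7 ± 6.06 against 72.2 ± 11.6 FPKM (SD, n = 3 each), Cox7a2 49.0 ± 2.84 against 47.7 ± 1.28 FPKM and Cox7b 48.0 ± 0.889 against 49.0 ± 1.78 FPKM, all overlapping.

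The restricted isoforms of complex IV were listed at a small part of their common partners. Cox8b, a heart and muscle form, took between 0.561% and 1.33% of the Cox8a and Cox8b sum, and Cox6a2, known in muscle and in parvalbumin interneurons, between 1.04% and 1.87% of its pair. Cox7a1 took between 3.28% and 4.502% of the pair with Cox7a2, and Cox6b2, known from testis, between 1.10% and 1.84% of the pair with Cox6b1. Cox4i2 took between 0.294% and 1.74% of the pair with Cox4i1. All 4 isoforms tested had negative log2 fold changes, as did 50.4% of all genes tested, though that of Cox7a1 reached 0.04 in 1 of the alternatives. Their means over the 6 libraries ran from 1.47 FPKM (Cox6b2) to 2.10 FPKM (Cox8b), near the filter of 1 FPKM. Cox4i2, which lay under the filter, went the other way. Its means were 0.464 ± 0.216 FPKM under the WT label and 0.590 ± 0.419 FPKM under the APP/PS1 label (SD, n = 3 each), with overlapping libraries. Cox8b was at 2.60, 3.36 and 1.78 FPKM under the WT label and 1.74, 1.78 and 1.34 FPKM under the APP/PS1 label (log2 fold change -0.43 ± 0.16, SE; limma adjusted p = 0.718). That value was -0.28 without WT-labelled replicate 2, -0.60 without WT-labelled replicate 3 and -0.64 in the 4 libraries. WT-labelled replicate 3 lay beside the APP/PS1-labelled libraries, equal at this rounding to the APP/PS1-labelled replicate 2. Cox6b2 was at 1.63, 1.68 and 1.54 FPKM against 1.44, 1.32 and 1.19 FPKM, Cox6a2 at 2.03, 2.48 and 1.45 FPKM against 1.31, 1.35 and 1.84 FPKM, and Cox7a1 at 1.77, 2.20 and 1.70 FPKM against 1.95, 1.65 and 1.87 FPKM. Ndufa4, assigned to complex IV, had 32.7 ± 1.21 against 33.1 ± 1.49 FPKM, and its paralog Ndufa4l2 1.07 ± 0.208 against 1.26 ± 0.137 FPKM (SD, n = 3 each).

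Complex V was the other group with no separated nuclear member. Its log2 fold changes ran from -0.08 to 0.11 over 16 members, 8 positive and 8 negative. The catalytic subunits Atp5a1 and Atp5b were listed at 124.2, 121.6 and 124.4 FPKM against 125.4, 122.7 and 131.6 FPKM, and at 120.3, 124.6 and 117.6 FPKM against 114.1, 123.7 and 120.8 FPKM. Atp5c1, the central stalk, was at 47.0, 54.4 and 48.6 FPKM against 50.2, 58.4 and 53.1 FPKM. Atp5j2, the f subunit of the membrane part, had 9.14 ± 0.658 against 8.63 ± 0.811 FPKM (SD, n = 3 each). The 3 genes that encode the same c subunit of the proton ring were present in the order Atp5g3, Atp5g2 and Atp5g1, with WT-labelled means of 34.4, 15.7 and 9.96 FPKM and APP/PS1-labelled means of 33.5, 15.2 and 10.02 FPKM. Atp5l, the g subunit, was the lowest of the common subunits at 7.36 FPKM.

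The spread over the 6 libraries, as a coefficient of variation without regard to label, had a median of 6.33% over the nuclear members (1.997% to 59.2%) and 10.4% over the mitochondrially encoded genes (7.61% to 17.4%). The widest nuclear member was Ndufaf4, an assembly factor of complex I, at 5.44, 5.54 and 1.85 FPKM under the WT label and 6.61, 1.56 and 1.99 FPKM under the APP/PS1 label. It fell into a high set (WT-labelled replicates 1 and 2 and APP/PS1-labelled replicate 1) and a low set that cut across the labels and across App. Cox4i2, the oxygen-sensitive isoform known from mural cells, was next, at 0.490, 0.236 and 0.665 FPKM against 0.497, 0.225 and 1.05 FPKM, highest in the APP/PS1-labelled replicate 3. Cox6b1, a common subunit, was at 125.2, 116.2 and 82.1 FPKM against 112.6, 118.9 and 101.0 FPKM, with WT-labelled replicate 3 the low library. These 2 were named after their values were seen, as was Ndufaf4 for its spread. The APP/PS1-labelled replicate 3 was the lowest library for 37 of the 94 nuclear members and the highest for 10.

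**Figure D5:**
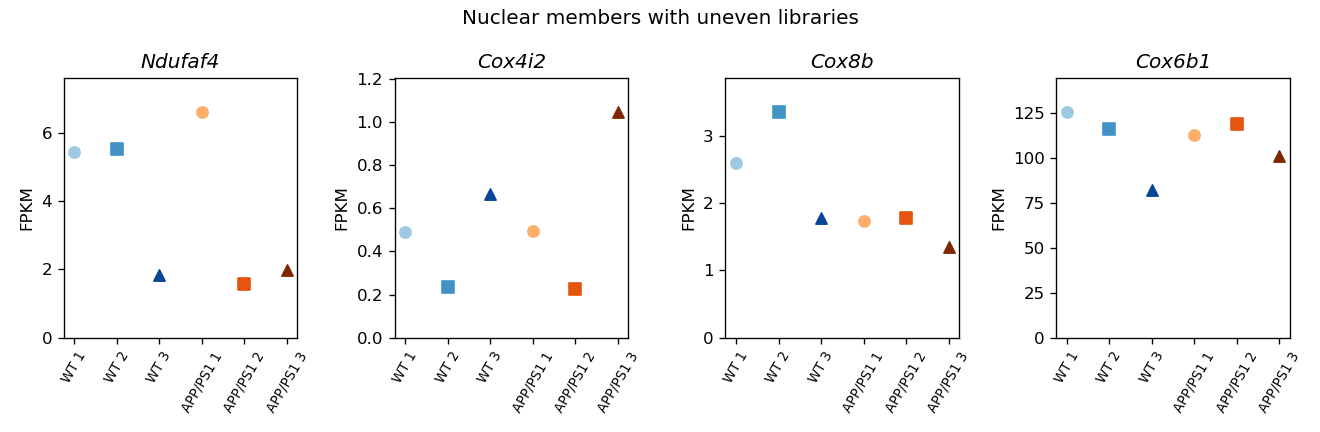
FPKM (vertical axes from 0) in each of the 6 libraries for 4 nuclear members: Ndufaf4, Cox4i2, Cox8b and Cox6b1. Ndufaf4 splits into a set near 1.56 to 1.99 FPKM and a set from 5.44 to 6.61 FPKM without regard to label, and WT-labelled replicate 3 is the low library of Cox6b1.

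The other genes of the pathway, from lists drawn up beside the members, held 0 genes past the adjusted threshold in limma. Of 17 tested chain components outside the name prefixes, 7 were positive and 10 negative, with a median log2 fold change of -0.03. Among them Higd1a, a factor of complexes III and IV, was at 9.94, 10.03 and 8.83 FPKM against 11.2, 11.3 and 10.7 FPKM, and Cycs, cytochrome c, had 19.0 ± 0.740 against 20.5 ± 0.730 FPKM (SD, n = 3 each). On the lower side, 2010107E04Rik had 17.6 ± 2.37 against 15.3 ± 0.754 FPKM and Slc25a3, the mitochondrial phosphate carrier, 30.3 ± 1.02 against 28.4 ± 0.572 FPKM (SD, n = 3 each). Of 38 tested assembly factors outside the prefixes, 18 were positive and 20 negative. Coa6, a copper-related assembly factor of complex IV, was at 10.5, 11.1 and 10.02 FPKM against 8.59, 8.11 and 8.19 FPKM (log2 fold change -0.31 ± 0.06, SE; limma adjusted p = 0.334), separated by a wide gap. Cox20, which assists mt-Co2, was at 9.07, 9.19 and 8.61 FPKM against 10.02, 12.3 and 9.87 FPKM.

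Genes that copy and transcribe mitochondrial DNA were split: of 20 tested, 9 were positive and 11 negative, with a median of -0.01. Tfam, which packages mitochondrial DNA and starts its transcription, was at 5.60, 5.07 and 5.85 FPKM under the WT label and 5.09, 5.15 and 5.23 FPKM under the APP/PS1 label. Mterf2, of the mitochondrial termination factor family, was at 3.59, 3.41 and 3.90 FPKM against 4.67, 3.97 and 4.90 FPKM, and Twnk, the helicase, had 4.28 ± 0.321 against 3.88 ± 0.247 FPKM (SD, n = 3 each). Of 20 genes for processing and stability of mitochondrial RNA, 11 were positive and 9 negative. Libraries did not overlap for 2 higher and 1 lower of them, against 5.38% and 6.51% of all genes. On the higher side, Fastkd1 was at 2.06, 2.27 and 2.16 FPKM against 2.85, 2.59 and 2.32 FPKM. On the lower side, Rexo2, a mitochondrial exonuclease, was at 8.27, 8.57 and 8.61 FPKM against 7.99, 7.63 and 7.63 FPKM. Of 18 regulators of mitochondrial biogenesis, 10 were positive and 8 negative, with a median of 0.01.

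Other mitochondrial and energy genes gave a background for these values. Of 18 citrate cycle enzymes, 16 were positive with a median log2 fold change of 0.03, where 49.6% of all genes were positive. Libraries did not overlap for 3 higher and 0 lower of them, against 5.38% and 6.51% of all genes. Their sums were 459.4, 444.3 and 455.7 FPKM against 469.8, 464.8 and 459.9 FPKM, the labels nearly touching. The 2 negative enzymes, Fh1 and Pdhb, had log2 fold changes of -0.02 and -0.01. Suclg2, a subunit of succinyl-CoA ligase, was at 2.57, 2.68 and 2.91 FPKM against 3.19, 3.33 and 3.22 FPKM. Of 30 import and membrane organisation genes, 13 were positive and 17 negative. Libraries did not overlap for 2 higher and 5 lower of these 30, against 5.38% and 6.51% of all genes. On the lower side, Timm10, an import chaperone, was at 13.4, 12.4 and 13.8 FPKM against 8.79, 11.8 and 11.6 FPKM. On the higher side, Chchd6 was at 8.04, 7.77 and 8.02 FPKM against 8.80, 9.34 and 8.44 FPKM. Of 16 cytosolic glycolysis enzymes, 8 were positive and 8 negative.

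Markers of other cell types differed between libraries too. Of 10 oligodendrocyte markers, 10 were positive, 5 had an unadjusted p under 0.05 and 2 were separated by label, all higher, where the shares over all genes were 49.6%, 2.85% and 5.38%. Their summed level ran from 351.1 to 449.7 FPKM under the WT label and from 422.9 to 511.0 FPKM under the APP/PS1 label, lowest in WT-labelled replicate 2 and highest in APP/PS1-labelled replicate 3, as was the mitochondrial sum. Of 10 choroid plexus markers, 10 were positive, 3 had an unadjusted p under 0.05 and 3 were separated. Their sums ran from 876.5 to 1227 and from 1139 to 1416 FPKM, lowest in WT-labelled replicate 3 and highest in APP/PS1-labelled replicate 2, unlike the mitochondrial sum. Haemoglobin and other erythroid genes (5) summed to between 333.5 and 481.2 and between 356.6 and 708.5 FPKM, highest in the APP/PS1-labelled replicate 3, and meningeal fibroblast markers (8) to between 181.6 and 214.4 and between 101.0 and 221.6 FPKM, lowest there. Astrocyte (9), microglial (8), endothelial (8), mural (9) and parvalbumin interneuron (9) marker sums ran from 547.2 to 594.9, 92.5 to 102.0, 36.7 to 46.2, 55.2 to 73.0 and 218.8 to 266.2 FPKM over the 6 libraries. The astrocyte and endothelial sums were also highest in the APP/PS1-labelled replicate 3, though lowest in WT-labelled replicate 1. The microglial and parvalbumin interneuron sums were highest in the APP/PS1-labelled replicate 1, and the mural sum in the APP/PS1-labelled replicate 2. Acta1 was the 1 of 9 striated muscle markers in the table. All 15639 rows reached 0.1 FPKM in at least 1 library, so no marker found could be at 0 in every library. The part of these cells in the mitochondrial difference was not tested, and in bulk tissue a change in cell numbers and a change in RNA per cell cannot be told apart.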

How the data were processed

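Hippocampal mRNA of 6 libraries was analysed, 3 per label. The authors deposited FPKM values per gene; the unit is taken from the values and the tools, since the submitters' processing notes list FastQC, HISAT2, StringTie and the build mm9 without versions or roles. RefSeq windows are of another build and were used for sequence only. All genes that reached 1 FPKM in 3 or more libraries were fitted with limma 3.58.1 in R 4.3.3. The fit used log2(FPKM + 1) with label as the only term. Tests were two-sided, with trended and robust moderation and Benjamini-Hochberg adjustment over 13700 genes. The fit was tested on simulated data, whose planted changes were larger than any member's log2 fold change with all libraries. That test does not show how well changes of the size seen here would be found. Members and lists were chosen with earlier results of these data known. Named were all mt- genes, per complex the highest, the lowest and the smallest p in each direction, the Sdh subunits, the isoform pairs, separated members with a small p, and up to 2 genes per list and direction; others were named after their values were seen. No 2 libraries shared a value above 0 in any row. Low values did not fall on whole-read steps, so no counts were recovered. The alternative TMM scaling was computed on FPKM without count weights. Circular RNA tables were not used here. Members not named in the text enter its counts, medians and sums, and their single values are not reported here.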

Additional observations from a re-analysis of the deposited data

How the results depend on the processing

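The count of members past the threshold, the medians and the sums were recomputed under other pseudocounts, filters, scalings, limma settings, single libraries left out, and 4 libraries; 89 of these values kept their side or moved little and 5 moved. Quantile normalization gave a mitochondrial median log2 fold change of 0.0422, a log2 ratio of mitochondrial sums of 0.0379 and of the mitochondrial to nuclear ratio of 0.0431; the mitochondrial genes hold the highest ranks, whose values this method sets equal between libraries by construction. Leaving out 1 library gave mitochondrial medians from 0.15 to 0.24, nuclear medians from -0.0311 (without APP/PS1 replicate 1) to 0.0143, and from 0 to 1 members past the threshold on the higher side; the 1 is mt-Nd5 without APP/PS1 replicate 2, and the cause was not tested. With the replicate number as a block, 0 members passed and the mitochondrial median was 0.198; 1 gene of all tested passed, against 3 without the block. The same-numbered libraries' deviations correlated at 0.0098, -0.056 and -0.094, so the numbers were not taken as pairs. The number of reads is unknown, so the precision of low members such as Sdhaf1 or Cox4i2 cannot be given.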
